A study of Mus musculus with 14 samples.

Results

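The collagen genes of mouse skeletal muscle were followed across fast and slow muscle and across a mouse model of Down syndrome. Members were all genes on the array whose symbol reads Col, a number, a and a number, and each was measured by its probe with the highest mean raw signal. This gave 44 genes with 69 probes, out of 24559 named genes on the array, and 32 of the 44 passed the filter on dim probes, as did 14161 genes in all. By the form of the protein, 11 are fibrillar collagens (10 kept), 9 are network collagens (7 kept) and 24 are other collagens (15 kept).

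The study hybridised RNA of 14 muscles of mice, 1 Agilent 1-colour array per sample. In Ts1Cje mice the distal end of mouse chromosome 16 is present in an extra copy, and the disomic controls (WT) were their littermates. The 4 groups were the extensor digitorum longus (EDL), a fast muscle, of 3 WT and 3 Ts1Cje mice, and the soleus, a slow muscle, of 4 WT and 4 Ts1Cje mice. The labels give C57BL/6 as the background of all 14 samples and list no treatment, and age and sex are not given in the sources used here.

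Collagens are trimers of chains wound into a triple helix, which are hydroxylated, secreted, trimmed and crosslinked outside the cell. Fibrillar chains (types I, II, III, V, XI, XXIV and XXVII) build the fibrils that carry load in the muscle's connective tissue and tendon, and network chains (types IV, VIII and X) form sheets such as the basement membrane around each fibre and capillary. The others include the beaded filaments of type VI, which tie the basement membrane to the fibrils, and the fibril-associated types that coat fibril surfaces. They also include transmembrane types and types XV and XVIII of the basement membrane zone.

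Promoter sequences from RefSeq (GRCm38.p6) show what lies before the starts of 3 members that differed most between the muscles and of Col1a2, a type I chain close to 0 in that comparison. Each stretch is 250 bases ending at the base before the transcript start, in the direction of the gene, 5′ to 3′. Capitals mark matches on either strand to 3 motifs, the CCAAT box with the letters CCAAT, the core of the GC box with the letters GGGCGG, and the TATA box with the letters TATAAA. A capital run can thus also be the reverse complement of a motif. The table holds 2 starts for Col9a1, at chr1:24177360-24177609 and chr1:24194953-24195202 on the plus strand. The Col8a1 stretch is chr16:57754738-57754987 on the minus strand, that of Col11a1 is chr3:114030290-114030539 on the plus strand and that of Col1a2 is chr6:4505368-4505617 on the plus strand.
Col9a1 first start: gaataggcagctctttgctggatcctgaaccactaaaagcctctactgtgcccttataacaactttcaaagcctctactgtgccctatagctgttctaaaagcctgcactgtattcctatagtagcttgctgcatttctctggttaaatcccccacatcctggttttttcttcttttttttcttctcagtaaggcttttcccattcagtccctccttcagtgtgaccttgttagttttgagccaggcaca
Col9a1 second start: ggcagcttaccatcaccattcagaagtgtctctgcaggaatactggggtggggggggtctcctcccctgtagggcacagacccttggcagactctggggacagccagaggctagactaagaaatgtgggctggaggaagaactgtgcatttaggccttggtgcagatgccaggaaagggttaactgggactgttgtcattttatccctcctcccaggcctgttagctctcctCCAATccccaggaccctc
Col8a1: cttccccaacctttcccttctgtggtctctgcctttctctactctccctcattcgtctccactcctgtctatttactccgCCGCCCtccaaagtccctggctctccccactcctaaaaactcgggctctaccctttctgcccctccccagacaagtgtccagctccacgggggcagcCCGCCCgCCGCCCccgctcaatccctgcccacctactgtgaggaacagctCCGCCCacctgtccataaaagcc
Col11a1: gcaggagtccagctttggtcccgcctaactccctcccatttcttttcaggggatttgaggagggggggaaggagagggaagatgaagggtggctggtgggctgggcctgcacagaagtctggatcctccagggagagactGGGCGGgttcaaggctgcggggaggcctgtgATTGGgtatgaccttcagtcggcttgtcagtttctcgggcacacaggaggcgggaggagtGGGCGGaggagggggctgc
Col1a2: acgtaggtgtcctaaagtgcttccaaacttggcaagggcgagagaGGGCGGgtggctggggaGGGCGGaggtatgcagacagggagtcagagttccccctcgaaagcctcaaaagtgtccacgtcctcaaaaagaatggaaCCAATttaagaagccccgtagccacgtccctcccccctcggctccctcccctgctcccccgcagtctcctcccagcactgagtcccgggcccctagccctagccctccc
The 300-base windows of the table, with 250 bases before and 50 after the start, covered 35 of the 44 collagen genes with 38 windows. GGGCGG, the core of the GC box, was in 23 of the 38 windows (60.5%), against 35.7% of all 32851 windows. CCAAT was in 13 (34.2% against 37.4%) and TATAAA in 5 (13.2% against 13.6%). Col8a1 held 4 GGGCGG matches, all on the opposite strand, and neither Col9a1 start held one in the stretch shown. Col4a1 and Col4a2, whose chains form the main basement membrane trimer, start 21 bases apart on opposite strands, and their windows overlap by 78 bases. A match is a description of the letters and was not tested against the expression values.

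Levels are log2 of the background-subtracted signal minus log2 of that array's 75th percentile, so 0 is the 75th percentile of an array and 1 unit is a doubling. Since probes differ in how brightly they hybridise, levels are compared between samples of 1 gene and never between genes. A gene is said to have changed, risen or fallen, or is called, where limma's moderated test over all 14 arrays gave a Benjamini-Hochberg adjusted p under 0.05 over the 14161 genes. Errors after ± are standard errors (SE) of a difference. The labels do not say which muscles came from which animal, so the p-values measure the spread between these samples. In whole muscle, fewer cells of a type and less RNA per cell cannot be told apart.

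Across the arrays 41.3% to 52.9% of probes were well above background, none was saturated, and arrays of 1 group correlated at 0.979 to 0.988. The number of arrays limits the precision. Sod1, a gene of the triplicated segment, was 0.86 higher in Ts1Cje EDL and 1.09 higher in Ts1Cje soleus (adjusted p = 0.0995 and 0.0032), and Tmem50b was 0.78 and 0.85 higher. Fast fibre markers were higher in the EDL for 8 of 8 genes called and slow fibre markers lower for 7 of 7, as the muscle labels say. All 6 EDL arrays were on slide 1, together with replicate 1 of soleus Ts1Cje, while the remaining 7 soleus arrays were on slide 2. Muscle is therefore nearly confounded with slide, and any muscle value that allows for the slide rests on soleus Ts1Cje replicate 1 alone.

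Of the 32 kept collagens, 27 were well above background on all 14 arrays. The exceptions were Col11a1 and Col4a5 (13 arrays each), Col8a1 (12), Col23a1 (10) and Col9a1 (6, all of them EDL). The 12 collagens not kept were Col27a1, Col4a3, Col10a1, Col6a4, Col6a5, Col6a6, Col9a3, Col19a1, Col13a1, Col17a1, Col25a1 and Col28a1. For 8 of them no probe was well above background on any array. Col13a1, a transmembrane collagen of the neuromuscular junction, was among these, at -5.05, -4.18 and -3.96 in EDL WT, -3.99, -4.68 and -4.38 in EDL Ts1Cje, -5.32, -4.97, -3.82 and -3.10 in soleus WT and -3.17, -5.12, -3.62 and -3.94 in soleus Ts1Cje. Such values bound the level from above and give no order between groups.

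The first comparison asked which collagens differ between the fast EDL and the slow soleus. Over both genotypes 15 of the 32 changed, 4 higher in the EDL (Col9a1, Col7a1, Col24a1 and Col4a4) and 11 higher in the soleus (Col8a1, Col11a1, Col12a1, Col26a1, Col4a5, Col18a1, Col14a1, Col16a1, Col23a1, Col5a2 and Col4a6). Among all genes 46.5% were called in this comparison, 27.7% higher in the EDL and 18.8% lower, so the share of collagens called was near the background and their split by direction ran the other way. The median collagen was 0.28 lower in the EDL on the log2 scale (-0.28), against 0.04 for all genes, and 25 of 32 were lower, against 46.3% of all genes. Col9a1 and Col23a1 passed the filter on dim probes only through groups where they are high, so their calls add no support to these counts. The bulk chains of muscle connective tissue, Col1a1, Col1a2, Col3a1, Col6a1, Col6a2, Col6a3, Col4a1 and Col4a2, were not called.

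**Figure D1:**
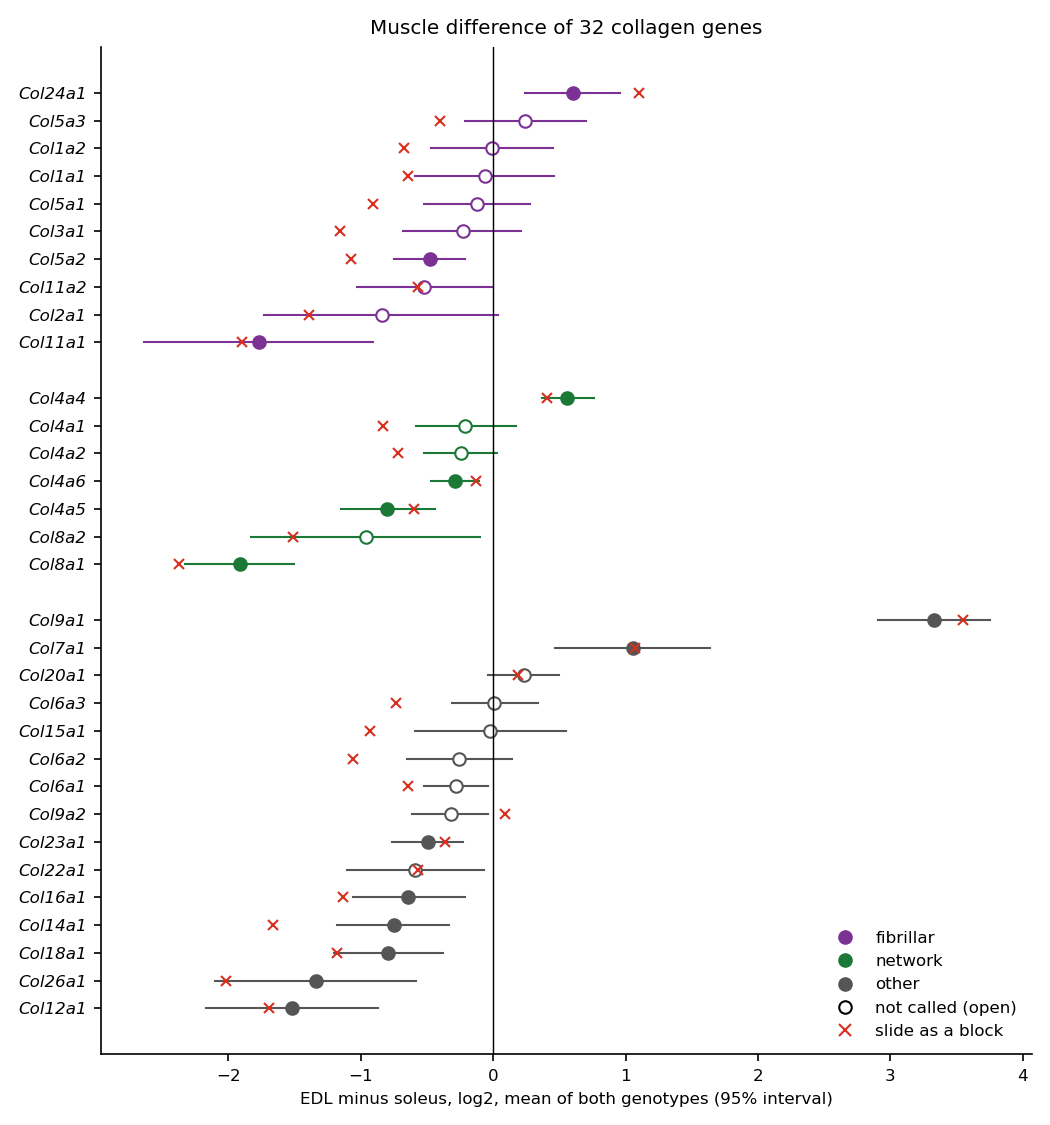
Difference between EDL and soleus (log2, mean of both genotypes, 6 against 8 arrays) for the 32 kept collagen genes, grouped as fibrillar, network and other. Points are limma estimates with 95% intervals, filled where called, and red crosses are the estimates with the slide as a block. Most points lie left of 0, from -1.91 for Col8a1 to 3.33 for Col9a1, whose soleus values are all below background. The crosses lie clearly left of the points for Col3a1 (-1.16), Col5a2 (-1.07) and Col6a2 (-1.06).

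Among the fibrillar collagens 3 of 10 changed, Col11a1 and Col5a2 lower in the EDL and Col24a1 higher, with a class median of -0.18. Col11a1, a type XI chain that lies in the core of fibrils, was measured at chr3:113923185-113923244, plus strand (mm9). Col11a1 read -3.68, -2.11 and -1.29 in EDL WT, -1.64, -1.69 and -1.8 in EDL Ts1Cje, -1.98, -0.04, -0.10 and 0.51 in soleus WT and -0.02, -0.64, 0.20 and -0.06 in soleus Ts1Cje. All EDL Ts1Cje arrays were below all soleus Ts1Cje arrays, whereas soleus WT replicate 1 lay among the EDL values. The difference was -1.77 ± 0.40 (3.41-fold, adjusted p = 0.00301), and with the slide as a block it was -1.90 with an adjusted p of 0.163. Its partner chain Col11a2 was at -0.52 ± 0.24 (adjusted p = 0.0897) and Col2a1, the main fibrillar chain of cartilage, at -0.84 ± 0.41 (adjusted p = 0.109).

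Type V collagen starts the assembly of type I fibrils and limits their width. Col5a2 read -0.72, -0.94 and -1.10 in EDL WT, -0.90, -0.72 and -0.87 in EDL Ts1Cje, -0.42, -0.66, -0.67 and -0.43 in soleus WT and 0.27, -0.60, -0.41 and -0.21 in soleus Ts1Cje. The EDL and soleus ranges of Col5a2 (probe at chr1:45431204-45431263, minus strand) did not overlap, which held for 5.69% of all genes in this direction, and the difference was -0.48 ± 0.12 (adjusted p = 0.00684). Col5a1 read 1.27, 1.24 and 1.37 in EDL WT, 1.74, 1.57 and 1.03 in EDL Ts1Cje, 1.70, 1.04, 1.07 and 1.59 in soleus WT and 2.31, 1.35, 1.69 and 1.17 in soleus Ts1Cje. Those ranges overlapped, with a difference of -0.12 ± 0.19 (adjusted p = 0.616), and Col5a3 was at 0.24 ± 0.21 (adjusted p = 0.358).

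Col24a1, a fibrillar chain best known from bone, ran the other way (probe at chr3:145214473-145214532, plus strand). Col24a1 read -1.17, -1.96 and -1.32 in EDL WT, -1.08, -1.23 and -1.15 in EDL Ts1Cje, -2.09, -2.75, -2.15 and -1.92 in soleus WT and -2.04, -1.40, -1.26 and -1.73 in soleus Ts1Cje. EDL WT replicates 2 and 3 (-1.96 and -1.32) were within the soleus range, and EDL Ts1Cje lay narrowly above soleus Ts1Cje (-1.23 against -1.26). The difference was 0.60 ± 0.17 (1.51-fold, adjusted p = 0.0108).

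The chains of types I and III, which make most of the fibril mass of muscle, were not called in the fit without the slide as a block. Col1a1 read 5.85, 6.94 and 6.90 in EDL WT, 7.07, 7.47 and 6.81 in EDL Ts1Cje, 5.87, 6.84, 6.83 and 7.20 in soleus WT and 7.62, 6.98, 7.23 and 6.64 in soleus Ts1Cje. The lowest EDL and the lowest soleus array were both WT replicate 1, and the ranges overlapped almost wholly. The difference of Col1a1 was -0.06 ± 0.24 (95% interval -0.59 to 0.46, adjusted p = 0.854). Col1a2 read 7.01, 8.10 and 8.02 in EDL WT, 7.98, 8.28 and 7.76 in EDL Ts1Cje, 7.27, 7.98, 7.93 and 8.25 in soleus WT and 8.45, 7.67, 7.85 and 7.55 in soleus Ts1Cje. Col1a2, the second chain of type I, showed the same low pair of arrays and a difference of -0.01 ± 0.21 (95% interval -0.47 to 0.45, adjusted p = 0.978). Col3a1 read 4.96, 5.08 and 4.93 in EDL WT, 5.63, 5.57 and 5.01 in EDL Ts1Cje, 5.70, 4.94, 4.85 and 5.42 in soleus WT and 6.43, 5.47, 5.61 and 5.04 in soleus Ts1Cje. Soleus Ts1Cje replicate 1 was the highest Col3a1 array, and the difference was -0.23 ± 0.21 (adjusted p = 0.372). With the slide as a block Col3a1 was at -1.16 (adjusted p = 0.0371), a value that rests on that array.

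Among the network collagens 4 of 7 changed, 3 lower in the EDL and Col4a4 higher, with a class median of -0.29. Col8a1, a chain of the short type VIII network of vessels, had the largest fall of any collagen in the EDL (probe at chr16:57624471-57624530, minus strand). Col8a1 read -3.38, -2.48 and -2.28 in EDL WT, -2.39, -2.08 and -2.19 in EDL Ts1Cje, -0.59, -0.81, -1.24 and -0.34 in soleus WT and 0.03, -0.74, -0.32 and -0.41 in soleus Ts1Cje. Every EDL array was below every soleus array, and 2 of the 3 EDL WT arrays were not well above background. The difference was -1.91 ± 0.19 (3.77-fold, adjusted p = 4.83e-06), -1.97 ± 0.27 within WT (adjusted p = 1.74e-04) and -1.86 ± 0.27 within Ts1Cje (adjusted p = 2.44e-04). Its partner Col8a2 was at -0.96 ± 0.40 (adjusted p = 0.0644).

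Col4a5, a basement membrane chain encoded on the X chromosome, was measured at chrX:138123547-138123606, plus strand. Col4a5 read -2.28, -2.38 and -2.47 in EDL WT, -1.82, -1.60 and -2.73 in EDL Ts1Cje, -1.37, -1.56, -2.07 and -1.55 in soleus WT and -1.37, -1.16, -0.96 and -1.30 in soleus Ts1Cje. Within each genotype the EDL lay below the soleus, with a difference of -0.80 ± 0.17 (adjusted p = 0.00179). After normexp background correction, which compresses the differences of dim probes, it was -0.09 (adjusted p = 0.508). Col4a6 read -0.54, -0.36 and -0.72 in EDL WT, -0.59, -0.61 and -0.72 in EDL Ts1Cje, -0.07, -0.10, -0.32 and -0.42 in soleus WT and -0.51, -0.38, -0.31 and -0.31 in soleus Ts1Cje. Col4a6 (probe at chrX:137601433-137601491, minus strand), which trimerises with Col4a5, differed by -0.29 ± 0.08 (adjusted p = 0.0133), and the muscles overlapped within WT but not within Ts1Cje.

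Col4a4 (probe at chr1:82447879-82447938, minus strand), which trimerises with Col4a3 and Col4a5, was higher in the EDL. Col4a4 read 0.84, 0.78 and 0.63 in EDL WT, 0.96, 0.85 and 1.02 in EDL Ts1Cje, 0.12, 0.58, 0.10 and 0.32 in soleus WT and 0.42, 0.15, 0.22 and 0.38 in soleus Ts1Cje. Every EDL array was above every soleus array, as for 14.6% of all genes in this direction, and the difference was 0.56 ± 0.09 (1.48-fold, adjusted p = 2.43e-04). When the slide entered as a block it was 0.41 (adjusted p = 0.16). Col4a3, the third chain of that trimer, was not above background on any array.

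The main basement membrane pair was not called in the fit without the slide as a block. Col4a1 read 3.82, 3.60 and 3.66 in EDL WT, 3.94, 3.92 and 3.62 in EDL Ts1Cje, 4.24, 3.56, 3.63 and 4.10 in soleus WT and 4.58, 4.32, 3.88 and 3.43 in soleus Ts1Cje. Col4a2 read 3.61, 3.60 and 3.59 in EDL WT, 3.63, 3.81 and 3.71 in EDL Ts1Cje, 4.06, 3.59, 3.60 and 4.05 in soleus WT and 4.39, 4.06, 3.91 and 3.55 in soleus Ts1Cje. In the soleus both spread more widely than in the EDL, with soleus Ts1Cje replicate 1 highest for each. The differences were -0.21 ± 0.17 for Col4a1 and -0.24 ± 0.13 for Col4a2 (adjusted p = 0.343 and 0.133), beside a median of -0.28 over the 32 members.

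Among the other collagens 8 of 15 changed, 6 lower in the EDL and 2 higher, with a class median of -0.32. Col9a1 encodes a chain of type IX, which coats type II fibrils in cartilage and has a long and a short form from alternative starts. Col9a1 read -1.86, -0.77 and -1.27 in EDL WT, -0.75, -0.71 and 0.02 in EDL Ts1Cje, -4.08, -3.63, -3.55 and -3.77 in soleus WT and -4.87, -4.89, -4.85 and -4.12 in soleus Ts1Cje. All EDL arrays were well above background and none of the 8 soleus arrays was, so the soleus values are upper limits. Against the detection limit of each soleus array, Col9a1 was at least 3.56-fold higher in EDL WT (measured means -1.30 and -3.76, adjusted p = 4.22e-05) and at least 8.09-fold higher in EDL Ts1Cje (means -0.48 and -4.68, adjusted p = 5.21e-07). On each soleus array that limit was the dimmest detected probe, or the Col9a1 probe itself where it was brighter. Col9a1 passed the filter on dim probes through the EDL groups alone, where it is high, so its call adds no support to the count of members. Setting Col9a1 at these limits leaves it the highest member and moves no median over the members.

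The Col9a1 probe used lies at chr1:24259125-24259184, plus strand, and a second probe at chr1:24201545-24201604 did not follow it. The second was well above background on 4 arrays, all soleus, and was 1.14 lower in the EDL (-1.14, from -3.86 ± 0.55 over 6 EDL and -2.72 ± 0.43 over 8 soleus arrays, SD). The result for Col9a1 therefore belongs to 1 probe. Col9a2, the partner chain, was at -0.32 ± 0.13 (adjusted p = 0.0587), and Col9a3 was not above background on any array.

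The fibril-associated types XII and XIV sit on type I fibrils in tendon and around muscle fibres. Col12a1 read -1.84, -0.51 and 0.01 in EDL WT, -0.41, -0.21 and -0.65 in EDL Ts1Cje, -0.53, 0.72, 1.01 and 1.14 in soleus WT and 1.39, 1.11, 1.52 and 0.95 in soleus Ts1Cje. In Ts1Cje all EDL arrays were below all soleus arrays, while in WT soleus replicate 1 lay within the EDL range. Col12a1 (probe at chr9:79446895-79446954, minus strand) differed by -1.52 ± 0.30 (2.86-fold, adjusted p = 0.00125), and by -1.69 (adjusted p = 0.104) once the slide was a block. Col14a1 read 0.02, -0.20 and 0.80 in EDL WT, 0.27, 0.51 and 0.47 in EDL Ts1Cje, 0.86, 0.61, 0.90 and 0.88 in soleus WT and 2.09, 0.76, 1.26 and 1.15 in soleus Ts1Cje. Soleus Ts1Cje replicate 1 was the highest Col14a1 array and stood well apart from the rest. The difference at this probe (chr15:55352264-55352323, plus strand) was -0.75 ± 0.20 (adjusted p = 0.00723), while a second kept Col14a1 probe gave -0.02, and the mean of both was -0.39 (adjusted p = 0.141).

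Col16a1 (probe at chr4:129776333-129776392, plus strand) and Col22a1 are fibril-associated too, the latter placed at the junction of muscle and tendon. Col16a1 read 1.94, 2.67 and 2.84 in EDL WT, 2.51, 2.76 and 2.37 in EDL Ts1Cje, 2.46, 3.03, 3.27 and 3.60 in soleus WT and 3.64, 2.94, 3.38 and 2.92 in soleus Ts1Cje. The ranges of the muscles overlapped in WT, and the difference was -0.64 ± 0.20 (adjusted p = 0.0185). Col22a1 read 2.46, 3.08 and 3.47 in EDL WT, 3.04, 3.45 and 3.55 in EDL Ts1Cje, 2.64, 3.84, 4.00 and 4.02 in soleus WT and 3.88, 3.49, 4.34 and 3.87 in soleus Ts1Cje. WT replicate 1 was the lowest array of its muscle in each case, and the Col22a1 difference was -0.59 ± 0.24 (adjusted p = 0.0583). Col20a1 was at 0.23 ± 0.13 (adjusted p = 0.147).

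Col7a1 forms the anchoring fibrils under the epidermis, and was higher in the EDL (probe at chr9:108886861-108886920, plus strand). Col7a1 read 2.19, 1.31 and 3.36 in EDL WT, 2.15, 1.84 and 2.95 in EDL Ts1Cje, 1.77, 1.06, 1.57 and 1.40 in soleus WT and 1.03, 1.19, 1.02 and 0.91 in soleus Ts1Cje. The EDL arrays spread widely in each genotype, and the EDL lay above the soleus throughout in Ts1Cje but not in WT. The difference was 1.06 ± 0.27 (2.08-fold, adjusted p = 0.00641), and 1.07 (adjusted p = 0.244) once the slide was a block. Of 5 epidermis markers Krt1 and Dsp were above background on no array, Krt10 was lower in the EDL (-0.25 ± 0.08, adjusted p = 0.0185), and Krt14 and Krt5 were at -0.18 ± 0.17 and -0.15 ± 0.09 (adjusted p = 0.404 and 0.218). The part of epidermis in the Col7a1 difference was not tested.

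The multiplexins, types XV and XVIII, lie in the basement membrane zone, and their ends can be released as fragments such as endostatin from Col18a1. Col18a1 read 0.77, 1.22 and 1.18 in EDL WT, 1.38, 1.60 and 1.57 in EDL Ts1Cje, 1.07, 1.99, 2.16 and 2.25 in soleus WT and 2.61, 1.8, 2.53 and 2.16 in soleus Ts1Cje. Only soleus WT replicate 1 lay within the EDL range. Col18a1 (probe at chr10:76514926-76514985, minus strand) differed by -0.79 ± 0.19 (1.72-fold, adjusted p = 0.00454), and its second kept probe by -0.96. Col15a1 read -1.21, -0.27 and -1.04 in EDL WT, -0.56, -0.80 and -0.36 in EDL Ts1Cje, -0.55, -0.84, -0.72 and -0.88 in soleus WT and 0.15, -1.87, -0.29 and -0.51 in soleus Ts1Cje. The ranges overlapped, and Col15a1, whose loss weakens muscle and capillaries, was at -0.02 ± 0.26 (adjusted p = 0.957). Its other kept probes gave -0.17 and -0.61.

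Type VI forms beaded filaments between basement membrane and fibrils, and mutations in its chains cause congenital muscle disease in people. Col6a1 read 4.32, 4.57 and 4.62 in EDL WT, 4.65, 4.79 and 4.69 in EDL Ts1Cje, 4.64, 4.71, 4.64 and 5.05 in soleus WT and 5.32, 4.92, 5.12 and 4.68 in soleus Ts1Cje. Col6a2 read 1.76, 1.61 and 1.95 in EDL WT, 2.04, 2.14 and 1.73 in EDL Ts1Cje, 2.28, 1.65, 1.99 and 2.54 in soleus WT and 2.83, 2.14, 1.99 and 1.61 in soleus Ts1Cje. Col6a3 read 3.24, 3.50 and 3.38 in EDL WT, 3.50, 3.64 and 3.37 in EDL Ts1Cje, 3.45, 3.22, 3.10 and 3.48 in soleus WT and 4.18, 3.33, 3.62 and 3.04 in soleus Ts1Cje. Soleus Ts1Cje replicate 1 was the highest array for each of these 3 chains. The differences were -0.28 ± 0.11, -0.26 ± 0.18 and 0.01 ± 0.15 for Col6a1, Col6a2 and Col6a3 (adjusted p = 0.0518, 0.269 and 0.951). A second kept Col6a2 probe gave -0.62. With the slide as a block Col6a2 was at -1.06 (adjusted p = 0.0363) and Col6a3 at -0.73 (adjusted p = 0.046), both resting on that 1 soleus array.

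Col23a1, a transmembrane collagen, and Col26a1 complete the called genes. Col23a1 read -1.91, -2.45 and -2.85 in EDL WT, -2.36, -2.56 and -2.47 in EDL Ts1Cje, -2.36, -2.05, -2.12 and -2.27 in soleus WT and -1.8, -1.69, -1.70 and -1.55 in soleus Ts1Cje. Only 3 of the 6 EDL arrays were well above background for Col23a1 (probe at chr11:51394105-51394164, plus strand), against 7 of 8 soleus arrays. Col23a1 passed the filter on dim probes through soleus Ts1Cje alone, where it is high, so its calls add no support to the counts of members. The difference was -0.49 ± 0.12 (adjusted p = 0.00574), or -0.03 after normexp (adjusted p = 0.792). Col26a1 read -0.78, -0.01 and -0.15 in EDL WT, -1.05, 0.03 and -0.24 in EDL Ts1Cje, -0.45, 1.46, 1.02 and 1.58 in soleus WT and 1.64, 0.01, 1.57 and 1 in soleus Ts1Cje. Soleus WT replicate 1 and soleus Ts1Cje replicate 2 lay within the EDL range. Col26a1 (probe at chr5:137217629-137217688, minus strand) differed by -1.34 ± 0.35 (2.54-fold, adjusted p = 0.00734), and a second probe 5 bases away gave -1.31.

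**Figure D2:**
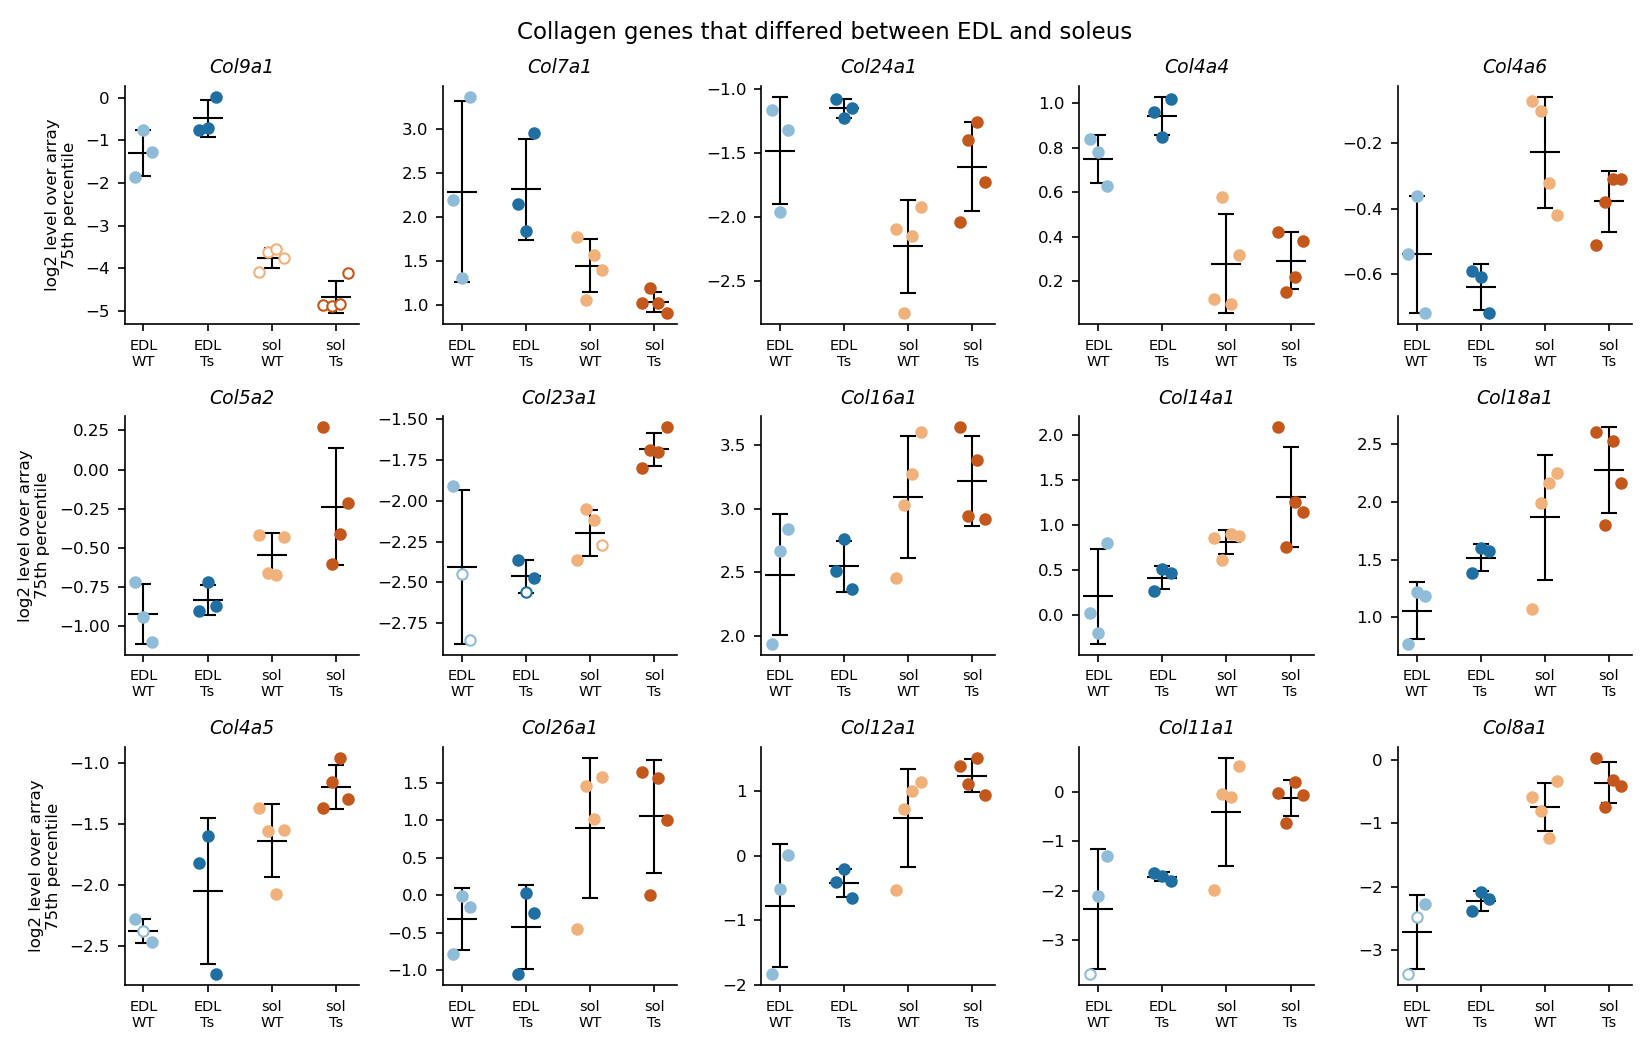
Level of the 15 called collagen genes on each array (log2 over the 75th percentile of the array) in EDL WT, EDL Ts1Cje, soleus WT and soleus Ts1Cje, with mean ± SD. Open points are arrays where the probe was not well above background. Col9a1 and Col4a4 lie wholly higher in the EDL and Col8a1 and Col5a2 wholly lower, while in the other panels at least 1 array crosses.

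Within WT alone 8 collagens changed, 3 higher in the EDL and 5 lower, where 29.8% of all genes were called (20.1% higher, 9.77% lower). The higher ones were Col9a1, Col24a1 and Col4a4, and the lower ones Col8a1, Col11a1, Col12a1, Col18a1 and Col4a5. Within Ts1Cje 11 changed, 3 higher (Col9a1, Col7a1, Col4a4) and 8 lower (Col8a1, Col12a1, Col14a1, Col18a1, Col23a1, Col26a1, Col4a5 and Col5a2), where 29.9% of all genes were called (17.5% higher, 12.4% lower). Col9a1, and in Ts1Cje Col23a1, add no support to these counts, since they passed the filter only where they are high. Single arrays moved these counts. In WT 3 were called without EDL WT replicate 1, 4 without soleus WT replicate 2, 5 without soleus WT replicate 4 and 13 without soleus WT replicate 1. In Ts1Cje 5 were called without EDL Ts1Cje replicate 3 (26.3% of all genes) and 7 without EDL Ts1Cje replicate 1 (20.9%).

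Over both genotypes Col8a1, Col9a1 and Col24a1 were called in every alternative run. For Col9a1 this adds no support, since it passed the filter only through the EDL groups, where it is high. Leaving out any single array kept the other calls except that of Col16a1, lost without EDL WT replicate 1. With the slide as a block 8 collagens were called (16.1% of all genes), the calls of Col11a1, Col12a1, Col16a1, Col18a1, Col23a1, Col26a1, Col4a4, Col4a5, Col4a6 and Col7a1 were lost, and the median over the members was -0.72, against 0.03 for all genes.

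Markers of the cells that make collagen were compared in the same way, in a contrast where 46.5% of all genes were called and 18.8% were called lower. Of 9 tenocyte markers, genes of tendon cells, all 9 were kept and 5 were lower in the EDL (among them Scx, Mkx, Ptx4 and Comp, from -1.43 to -1.05), with a median of -1.04 against 0.04 for all genes. Their summed level (log2) was 4.77 to 6.52 in EDL WT, 5.68 to 5.87 in EDL Ts1Cje, 5.10 to 6.90 in soleus WT and 6.20 to 6.83 in soleus Ts1Cje. Array by array the tenocyte mean was 0.52, 1.8 and 2.31 in EDL WT, 1.39, 1.69 and 1.53 in EDL Ts1Cje, 0.73, 2.70, 2.49 and 2.91 in soleus WT, and 2.79, 2.18, 2.70 and 2.20 in soleus Ts1Cje. Replicate 1 of each WT group was thus the lowest array of its muscle for these markers. In the EDL this array was also lowest for 16 of the 32 collagens (18.1% of all genes). In the soleus it was lowest for 13 (24.6%). Col11a1, Col12a1, Col16a1, Col22a1, Col8a2 and Col1a1 were among those with both, and Col3a1 and Col4a1 had neither. Of the 6 cartilage markers only Sox9 was kept (-1.18 ± 0.27, adjusted p = 0.00324), and Matn3 and Hapln1 were above background on no array. The part of tendon tissue in the collagen differences was not tested.

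**Figure D3:**
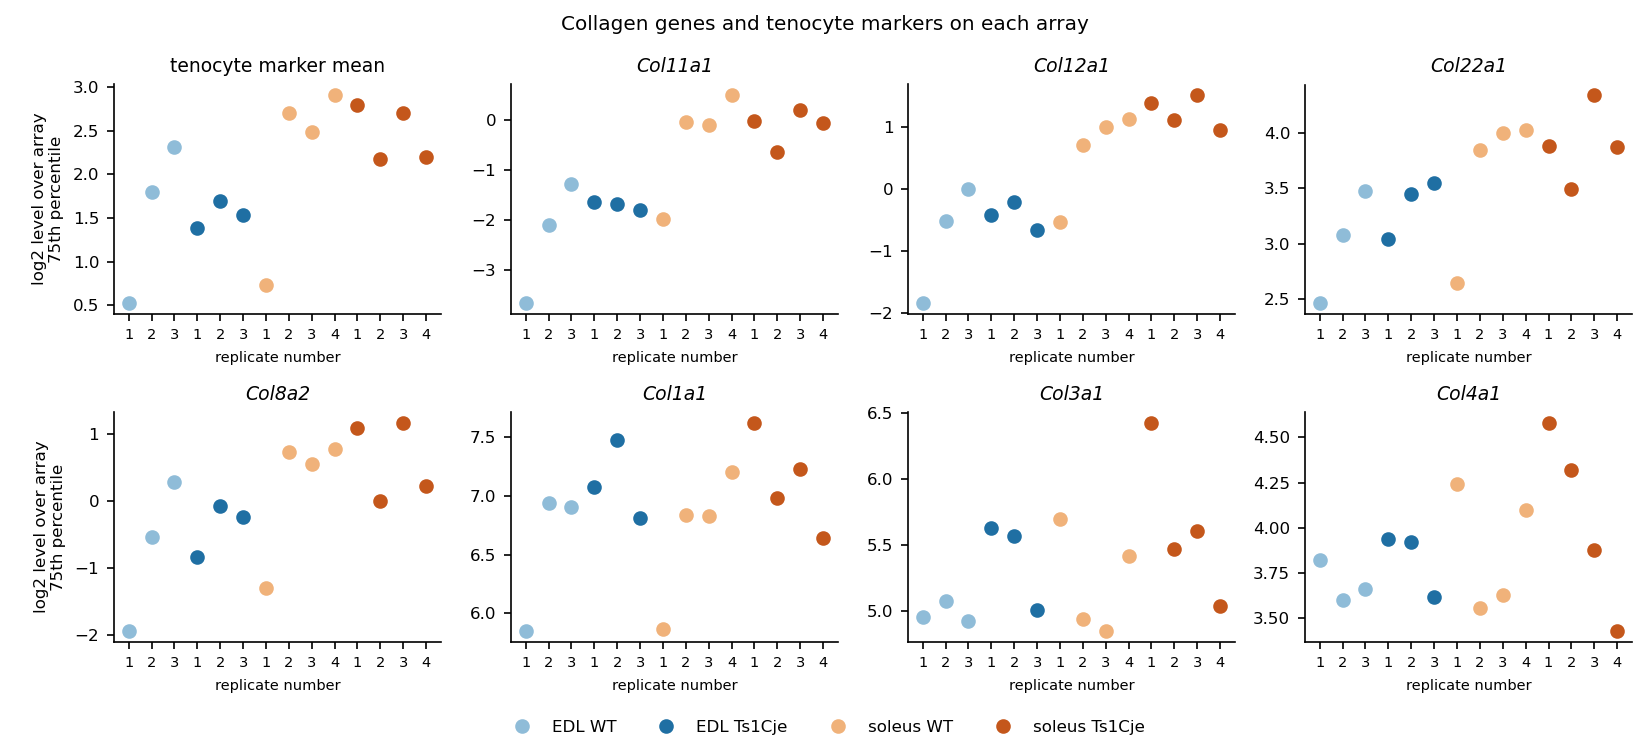
Mean level of 9 tenocyte markers and levels of 7 collagen genes on each of the 14 arrays (log2 over the 75th percentile), in the order of the groups and numbered by replicate. WT replicate 1 is the lowest array of its muscle for the tenocyte mean (0.52 in EDL, 0.73 in soleus) and for Col11a1, Col12a1, Col22a1, Col8a2 and Col1a1, and not for Col3a1 or Col4a1.

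Counts in most other marker lists were near or below the 46.5% of all genes called. Of 10 fibroblast markers 3 were lower in the EDL (Mfap5, Pi16 and Ly6a) and Smoc2 was higher, with a median of -0.20 and summed levels of 7.98 to 8.24 in EDL WT, 7.69 to 8.34 in EDL Ts1Cje, 7.97 to 8.25 in soleus WT and 7.88 to 8.38 in soleus Ts1Cje. Of 9 endothelium markers Tie1, Cdh5 and Emcn were lower (median -0.21), with summed levels of 6.66 to 7.05 in EDL WT, 6.76 to 7.5 in EDL Ts1Cje, 6.67 to 6.85 in soleus WT and 6.45 to 7.08 in soleus Ts1Cje. Of 7 macrophage markers 5 were lower (median -0.51), among them C1qc, C1qb, C1qa and Csf1r, with 3.91 to 4.14 in EDL WT, 4.29 to 4.42 in EDL Ts1Cje, 4.43 to 4.63 in soleus WT and 4.54 to 5.04 in soleus Ts1Cje. All 4 adipocyte markers kept of 5 were lower (median -2.68), with 2.38 to 5.46 in EDL WT, 2.22 to 3.55 in EDL Ts1Cje, 3.90 to 6.16 in soleus WT and 4.99 to 6.51 in soleus Ts1Cje. Pericyte and smooth muscle markers had 1 of 7 called (Abcc9, higher) and Schwann cell markers 2 of 6 (Sox10 higher, Mbp lower). Their part in the collagen differences was not tested.

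The genes that make, trim and bind collagen were compared in the same way. Of 24 synthesis, folding and crosslinking genes kept, 4 were higher in the EDL and 8 lower (median -0.17). The prolyl 4-hydroxylase subunits P4ha1 (1.09 ± 0.09, adjusted p = 8.75e-07) and P4ha2 (0.63 ± 0.08, adjusted p = 6.09e-05), which hydroxylate prolines of the helix, and Mia3, which loads collagen for export from the endoplasmic reticulum (0.62 ± 0.08, adjusted p = 7.14e-05), were higher. The prolyl 3-hydroxylase P3h2 was lower (-1.54 ± 0.19, adjusted p = 3.33e-05). None of 6 propeptide removal genes was called (median -0.11). Of 14 fibril regulators 6 were lower and none higher (median -0.19), among them the matricellular Postn (-2.40 ± 0.17), fibronectin Fn1 (-1.35 ± 0.13), Aspn (-1.22 ± 0.16) and Thbs2 (-1.04 ± 0.24).

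Of 10 breakdown genes 4 were lower in the EDL and none higher (median -0.11): the metalloproteinase inhibitor Timp1 (-2.89 ± 0.32), the collagen uptake receptor Mrc2 (-0.77 ± 0.19), the lysosomal protease Ctsk (-0.57 ± 0.16) and the gelatinase Mmp2 (-0.40 ± 0.14). Of 9 collagen receptors 4 were lower and 1 higher (median -0.26), with Lair1, an inhibitory receptor of leukocytes, at -1.19 ± 0.09, the integrin chain Itga10 at -0.90 ± 0.12, Cspg4 at -0.81 ± 0.15 and the platelet receptor Gp6 at 0.61 ± 0.15. Of 15 genes of transforming growth factor beta signalling, which drives collagen transcription in fibroblasts, 8 were lower and Tgfb2 was higher (median -0.36). The latent binding protein Ltbp2 was at -2.62 ± 0.19, the ligand Tgfb1 at -0.86 ± 0.12, Ltbp4 at -0.68 ± 0.12 and Tgfb2 at 0.77 ± 0.15. These shares stand beside 46.5% of all genes called.

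The second comparison asked whether the collagens differ between Ts1Cje and WT. No collagen changed in either muscle, by limma with adjustment over all genes. In the EDL the 32 members had an adjusted p of 1, where 1 gene of all was called (0.00706%), and 1 collagen had an unadjusted p under 0.05, against 2.87% of all genes. In the soleus their adjusted p was at least 0.233, where 0.247% of all genes were called, and 3 had an unadjusted p under 0.05, against 13.6%. The smallest soleus p was that of Col9a1, whose soleus values were below background in both genotypes. Over both muscles the smallest adjusted p was 0.41, with 0.290% of all genes called, and 4 (Col24a1, Col8a1, Col4a5 and Col18a1) had an unadjusted p under 0.05, against 9.46%.

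Without a test, 27 of the 32 collagens were higher in Ts1Cje in the EDL, against 50% of all genes, and 27 in the soleus, against 62.7%. The median collagen was 0.22 higher in the EDL and 0.24 in the soleus, against -0.00 and 0.07 for all genes. In both muscles 25 were higher, against 35.6% of all genes, and in the mean of the muscles 27, against 58.3%. The 7 others were Col20a1, Col23a1, Col26a1, Col4a6, Col7a1, Col9a1 and Col9a2. The SE of a member's genotype difference had a median of 0.29 in the EDL (range 0.13 to 0.62) and 0.25 in the soleus (0.11 to 0.54).

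**Figure D4:**
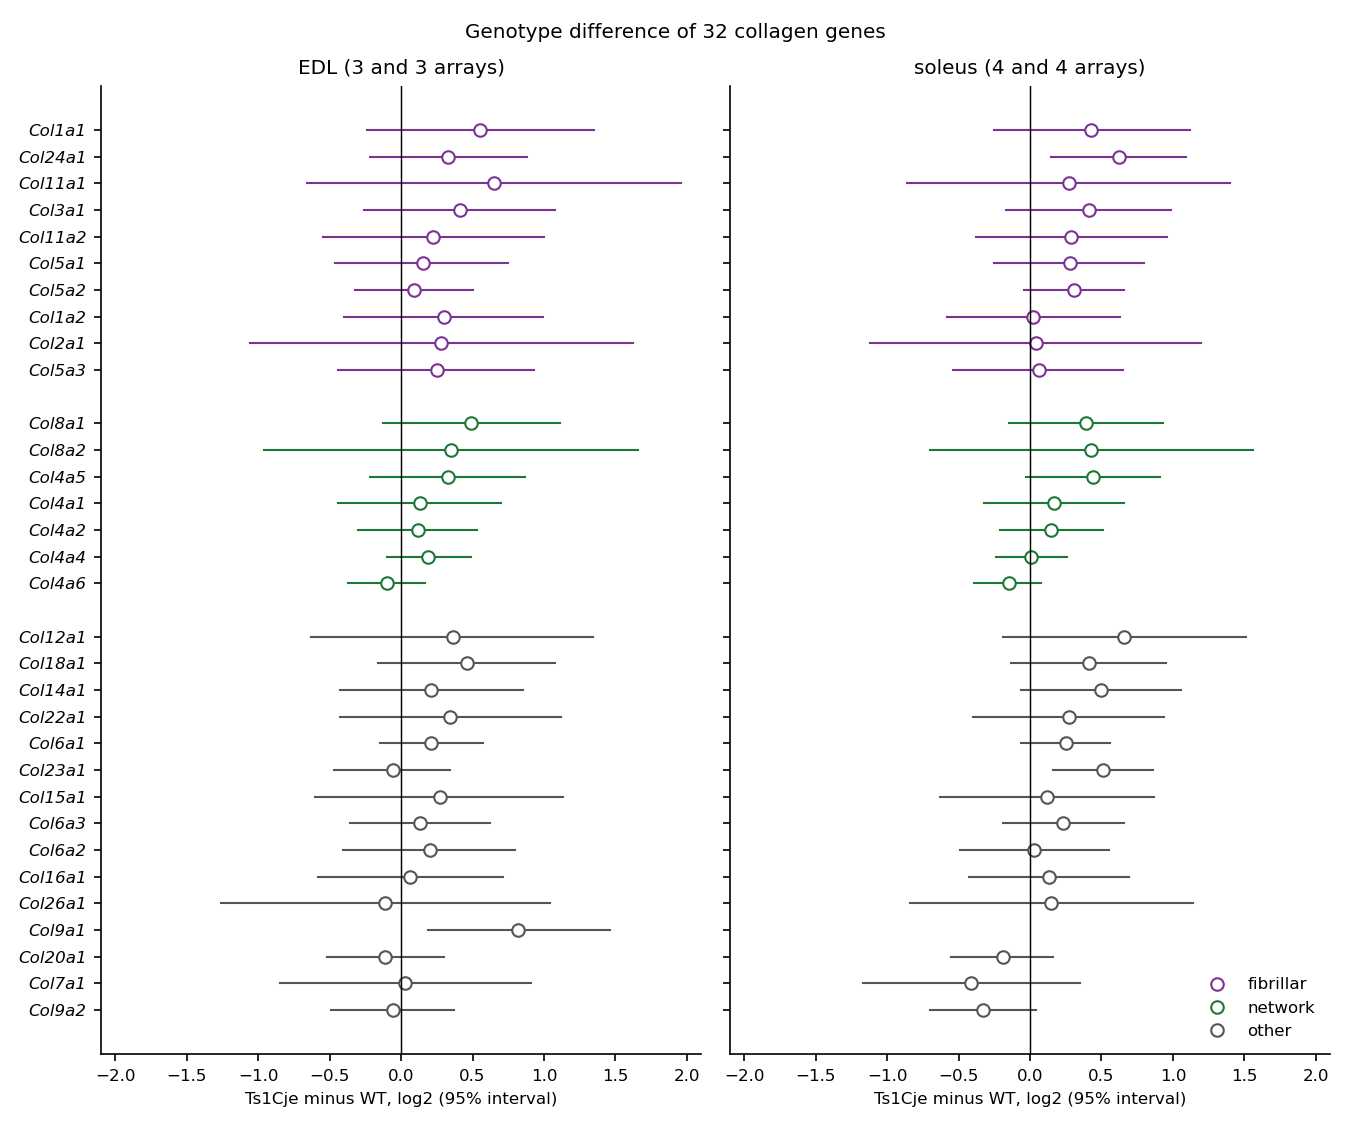
Ts1Cje minus WT (log2, limma estimate with 95% interval) for the kept collagen genes in EDL (3 against 3 arrays) and soleus (4 against 4), grouped by class. Most points lie right of 0, and nearly all intervals cross it. Col9a1 is not drawn in the soleus, where it was below background in both genotypes.

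All 10 fibrillar collagens were higher in each muscle, with class medians of 0.29 in the EDL and 0.28 in the soleus and none called. Col1a1 was at 0.55 ± 0.37 in the EDL (95% interval -0.24 to 1.35) and 0.43 ± 0.32 in the soleus (-0.25 to 1.12), with genotypes overlapping in each. Col3a1 was at 0.41 ± 0.31 and 0.41 ± 0.27, Col1a2 at 0.30 ± 0.32 and 0.02 ± 0.28, and Col11a1 at 0.65 ± 0.60 and 0.27 ± 0.52. The adjusted p values of these 4 genes were 1 in the EDL and from 0.499 to 0.978 in the soleus. Col24a1 had the smallest p over both muscles, at 0.33 ± 0.25 in the EDL, 0.62 ± 0.22 in the soleus (adjusted p = 0.29) and 0.47 ± 0.17 in the mean (adjusted p = 0.41).

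Of the 7 network collagens 6 were higher in each muscle, with medians of 0.19 and 0.17, and Col4a6 was lower in each (-0.10 ± 0.13 and -0.15 ± 0.11). Col8a1 was at 0.49 ± 0.29 in the EDL and 0.39 ± 0.25 in the soleus. It is the member that lies on mouse chromosome 16, but outside the triplicated segment. Col4a5 was at 0.33 ± 0.25 and 0.44 ± 0.22, and in the soleus its genotypes met at -1.37 without overlapping. Col4a1 was at 0.13 ± 0.26 and 0.17 ± 0.23 and Col4a2 at 0.12 ± 0.19 and 0.15 ± 0.17, with 95% intervals no wider than -0.44 to 0.70.

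Of the 15 other collagens 11 were higher in each muscle, with medians of 0.20 and 0.15. Col6a1, Col6a2 and Col18a1 have human counterparts on the chromosome that is triplicated in Down syndrome, but in the mouse they lie on chromosome 10 and are disomic in Ts1Cje. Col6a1 was at 0.21 ± 0.17 and 0.25 ± 0.14, Col6a2 at 0.20 ± 0.28 and 0.03 ± 0.24, Col6a3 at 0.13 ± 0.23 and 0.23 ± 0.20, and Col18a1 at 0.46 ± 0.29 and 0.41 ± 0.25. The 95% intervals of Col6a1 ran from -0.15 to 0.57 in the EDL and from -0.06 to 0.56 in the soleus. Col12a1 was at 0.36 ± 0.46 and 0.66 ± 0.39, Col14a1 at 0.21 ± 0.30 and 0.50 ± 0.26, and Col22a1 at 0.34 ± 0.36 and 0.27 ± 0.31, none called.

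Groups that did not overlap numbered 5 of 32 higher and none lower in the EDL (Col18a1, Col4a2, Col4a4, Col6a1 and Col9a1), against 2.84% and 2.77% of all genes. Most of these gaps were narrow. The highest WT and lowest Ts1Cje arrays read 3.61 and 3.63 for Col4a2, 0.84 and 0.85 for Col4a4, and 4.62 and 4.65 for Col6a1. They read -0.77 and -0.75 for Col9a1, and 1.22 and 1.38 for Col18a1. In the soleus Col23a1 and Col4a5 were higher without overlap, against 6.12% of all genes, and Col9a1 lower (2.28% of all genes). For Col4a5 the highest WT and the lowest Ts1Cje array both read -1.37 at the printed digits. Col23a1 passed the filter on dim probes through soleus Ts1Cje alone, the group where it is high, so its place in this count is no support. Col9a1 had the smallest p in the EDL, at 0.82 ± 0.29 (unadjusted limma p listed as 0.0154 and adjusted p = 1, from the fit over all genes). In the soleus it was below background in both genotypes, and no genotype fold is given. Col23a1 was at 0.51 ± 0.16 in the soleus (adjusted p = 0.274) and -0.06 ± 0.19 in the EDL. Of the 7 collagens with several kept probes, Col14a1 and Col15a1 had probes that differed in sign between the genotypes.

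The test of the difference between the genotype effects of the muscles called no collagen, and 0% of all genes. An unadjusted p under 0.05 was reached by 2 collagens, Col9a1 and Col23a1, against 3.20% of all genes. For Col23a1 the difference of effects was -0.57 ± 0.25 (adjusted p = 0.987). That of Col9a1 rests on soleus values below background.

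The count of collagens higher in Ts1Cje leaned on 3 arrays. EDL WT replicate 1 was the lowest EDL array for 16 of 32 collagens (18.1% of all genes), and soleus WT replicate 1 the lowest soleus array for 13 (24.6%). Soleus Ts1Cje replicate 1, the soleus array on the slide of the EDL arrays, was the highest soleus array for 17 (19.6%), and EDL Ts1Cje replicate 2 the highest EDL array for 13 (12.7%). Without EDL WT replicate 1, 20 collagens were higher in the EDL, with a median of 0.12, and 6 of 10 fibrillar ones. Without soleus WT replicate 1, 19 were higher in the soleus, with a median of 0.15, and 7 of 10 fibrillar ones. Without soleus Ts1Cje replicate 1, which is also the value within slide 2 and with the slide as a block, 18 were higher in the soleus, with a median of 0.04 against 0.07 for all genes. Higher in both muscles were then 17 of 32, as when both WT replicate 1 arrays were left out, an alternative added after the data were seen.

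**Figure D5:**
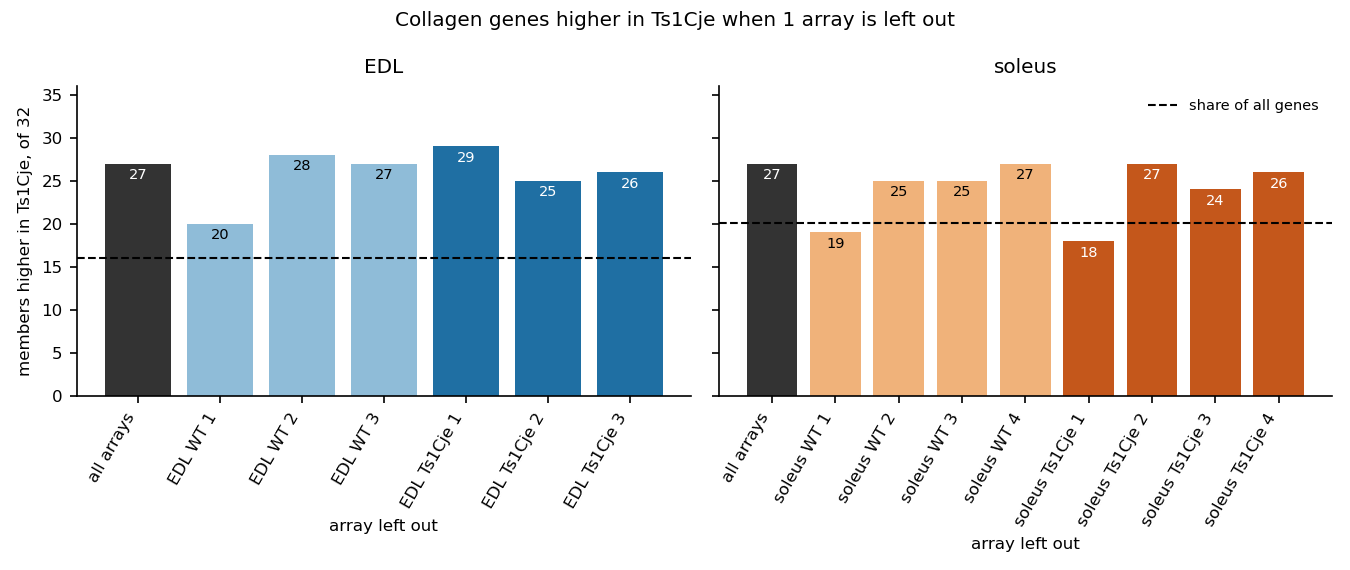
Number of the 32 kept collagen genes that were higher in Ts1Cje, by any size and with no test, in each muscle with all arrays (black) and with each array left out. The dashed line is the share of all genes that were higher with all arrays, put on the same scale. The counts run from 20 to 29 in the EDL and from 18 to 27 in the soleus, lowest without WT replicate 1 or soleus Ts1Cje replicate 1.

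Of all genes 50% were higher in Ts1Cje in the EDL and 62.7% in the soleus. Tenocyte markers were higher in Ts1Cje for 4 of 9 in the EDL (median -0.03) and 9 of 9 in the soleus (0.25), none called. The soleus direction leaned on WT replicate 1, whose tenocyte mean was 0.73. The other soleus WT arrays read 2.49 to 2.91, and soleus Ts1Cje read 2.18 to 2.79. Fibroblast markers were higher for 5 of 10 in the EDL (median -0.03) and 7 of 10 in the soleus (0.05), none called. Macrophage markers were higher for 6 of 7 (0.19) and 7 of 7 (0.17), none called. Adipocyte markers were higher for 0 of 4 in the EDL (-0.49) and 4 of 4 in the soleus (0.67), none called. The EDL direction leaned on WT replicate 3, whose adipocyte mean was 1.56. The other EDL WT arrays read -1.71 and -1.74, and EDL Ts1Cje read -1.98, -0.32 and -1.08. In the soleus the lowest adipocyte mean was 0.12, in WT replicate 1. Fast fibre markers were the marker list with calls, in the soleus, where 3 of 8 were lower in Ts1Cje (Myh4 -4.12 ± 0.53, Actn3 -1.95 ± 0.28 and Pvalb -1.86 ± 0.21, list median -0.36), and in the EDL none was called (0.03). The part of these cells in the genotype values was not tested.

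No gene of the 6 pathway lists was called between the genotypes in either muscle. Synthesis genes had medians of 0.00 in the EDL and 0.10 in the soleus, propeptide removal genes 0.08 and 0.14, and fibril regulators 0.11 and 0.12. Breakdown genes were higher in Ts1Cje for 10 of 10 in the EDL (median 0.15) and 7 of 10 in the soleus (0.14). Receptors had medians of 0.06 and 0.16. Genes of transforming growth factor beta signalling were higher for 10 of 15 in the EDL (0.09) and 14 of 15 in the soleus (0.17), beside 50% and 62.7% of all genes.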

How the data were processed

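RNA of 14 muscles (3 EDL and 4 soleus per genotype) was labelled with Cy3 and hybridised to Agilent arrays. The deposited scanner files hold spot intensities that Feature Extraction (11.5.1.1 per the file headers, 9.1 per the submitters' processing notes) had corrected for background, with flags, given as other values, for spots well above it. A deposited table of normalized log2 values, centred on each probe's median by its values, was an alternative, and its lowest correlation per array with the values below, centred likewise, was 0.9999. The authors' steps beyond this are not given in the sources used here. Probe positions are on mm9 per the file headers, and mm9 exon and UTR annotation was not used here.

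Control spots (3671 of 62976) were dropped, spots of a probe were averaged without those marked as outliers, and values were log2 of the intensity minus log2 of each array's 75th percentile. Of 55681 probes 33822 carried a symbol, of which 31796 matched the reference table and 2138 were updated. A gene was its probe of highest mean raw signal, kept if all arrays of some group had it well above background. limma 3.58.1 in R 4.3.3 fitted 4 group means to the 14 arrays (10 residual degrees of freedom, 2.8 prior). P-values of the 7 contrasts were each adjusted by Benjamini-Hochberg over 14161 genes, called at adjusted p under 0.05, and the code was tested on simulated data. Each member is accounted for, with array values for members called in any contrast and for the main chains of muscle, and lists name called genes, at most 4 of smallest p per list and contrast. Members and lists were chosen with earlier results of these data known.

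Alternatives were normexp (offset 50, on median signals), quantile scaling, no filter, the mean of probes, single muscles, trended and robust variance, slide and replicate blocks, and leaving out arrays. Same-numbered WT and Ts1Cje arrays deviated together in the EDL (correlations 0.40, 0.12 and 0.31) but not in the soleus (-0.12, -0.29, 0.01 and -0.13). The labels do not say whether the numbers mark pairs, and the source of the shared deviation was not tested. A total of 42 other per-sample columns were not used.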

Additional observations from a re-analysis of the deposited data

Results flagged for a closer look

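Of 64 groups of 4 soleus arrays checked, 1 for each kept collagen and genotype, 5 held an array far from the others, and chance gives about 1 in 20. In soleus WT, replicate 2 was low for Col14a1, a fibril-associated chain (0.61, others 0.86 to 0.90). Replicate 1 was low for Col22a1, the chain of the muscle and tendon junction (2.64, others 3.84 to 4.02), and for the type VIII chain Col8a2 (-1.30, others 0.56 to 0.77). Replicate 4 was high for the type VI chain Col6a1 (5.05, others 4.64 to 4.71). In soleus Ts1Cje, replicate 4 was high for Col9a1 (-4.12, others -4.89 to -4.85), although all these Col9a1 values are below background.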

How the results depend on the processing

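Over both genotypes 15 collagens differed between the muscles, and 8 with the slide as a block, where Col6a3 turned to -0.73 (adjusted p = 0.046 by limma). In WT the 8 became 5 with normexp (16.1% of all genes) and 4 with no filter (12.8%). With the slide as a block they became 4 (9.68%). In Ts1Cje the 11 became 6 with no filter, 4 with the slide as a block and 6 within slide 1. Leaving out 1 array gave 3 to 13 in WT (3 without EDL WT replicate 1, 13 without soleus WT replicate 1), 5 to 12 in Ts1Cje (5 without EDL Ts1Cje replicate 3) and 15 to 20 over both. The cause was not tested. No genotype contrast called a collagen under any alternative run.

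Among all genes, the soleus genotype calls (35) became 15 with normexp, 6 with no filter, 23 with the mean of probes, 4 with the muscle alone, 18 with the slide as a block, 1 within slide 2 and 9 without both WT replicate 1 arrays. Leaving out 1 array gave 10 without soleus WT replicate 1, 16 without replicate 3 and 17 without replicate 4, and 18, 11 and 12 without soleus Ts1Cje replicates 1, 2 and 3. The EDL genotype count (1) was 1 to 3 with 1 array left out, 2 with no filter, 3 with quantile scaling or a trended and robust variance, and 5 without both arrays. Those over both muscles (41) became 22 with normexp, 21 with no filter and 24 without both arrays, and 25 without EDL Ts1Cje replicate 3 or soleus WT replicate 1 and 26 without soleus Ts1Cje replicate 3. Muscle calls over both genotypes (6587) became 2282 with the slide as a block. Those in WT (4224) became 2283 with normexp, 1371 with the slide as a block and 2731 without both arrays, and in Ts1Cje (4238) 2071 with the slide as a block and 961 within slide 1.

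With the replicate block of pairs 0 collagens were called in every genotype contrast, and calls among all genes fell to 7 in the soleus and 5 over both muscles, with 1 in the EDL either way. With the number as a block 7, 9 and 15 collagens differed between the muscles in WT, Ts1Cje and over both. Of 793 values for called collagens 688 stayed called in the same direction and 105 were no longer called. Dim signals limit Col9a1, Col23a1, Col8a1, Col4a5 and Col11a1, not above background on every array.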

Other observations

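Among the collagens that did not pass the filter, 4 were well above background on some arrays. Col25a1, a transmembrane collagen needed for motor innervation, was detected by its brightest probe on 5 arrays (2 soleus WT and 3 soleus Ts1Cje) and by another probe on 1 EDL array, and Col19a1 on 2 soleus Ts1Cje arrays. Col6a5 and Col6a6, the long alternative chains of type VI, were each detected on 1 soleus WT array. The difference between the muscles was not tested for these genes.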
